A study of Mus musculus with 12 samples.

Results

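The HIF-1 alpha gene Hif1a and 9 genes known as hypoxia targets, Vegfa, Slc2a1, Pgk1, Ldha, Car9, Egln3, Adm, Bnip3 and Ankrd37, were followed in mouse gingiva by mRNA sequencing. They were chosen by name, and these 10 genes are 10 of the 21965 genes in the count table and 10 of the 15046 left by edgeR's filter on low counts. The libraries fall into 4 groups of 3. WT naive libraries came from C57BL/6 mice (C57BL/6J in the methods) without a ligature, and WT ligated libraries came from C57BL/6 mice whose gingiva was taken 8 days after a silk ligature had been tied around an upper molar. CybbKO naive and CybbKO ligated libraries came from Cybb-/- mice, which carry a knockout of the gene for the catalytic subunit of the NADPH oxidase Nox2, without and with the same ligature for the same 8 days. The labels give an age of less than 12 weeks for all groups, the methods give a narrower range and mice of both sexes, and neither says which mouse gave which library. The labels do not say that replicates came from separate animals, so p-values measure the spread between these libraries. The study asked how Nox2 deficiency alters inflammation of the oral mucosa, and the comparisons here are ligated against naive tissue in each genotype and CybbKO against WT tissue.

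HIF-1 is a transcription factor made of an oxygen-regulated alpha subunit and the constant subunit Arnt. When oxygen is present, prolyl hydroxylases of the Egln family mark the alpha protein for destruction through Vhl. When oxygen is scarce the protein accumulates and binds hypoxia response elements, whose core letters are ACGTG or GCGTG, at genes for glucose uptake, glycolysis, acid export, mitophagy and vessel growth. The control of HIF-1 alpha lies largely in protein stability, which RNA counts do not measure, and in inflamed tissue the Hif1a transcript itself is also known to respond to NF-kappa B.

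The 250 bases before the annotated start sites were read from RefSeq promoters (GRCm38.p6), which list 12 start sites for the 10 genes. The windows of Hif1a, Slc2a1 and Bnip3 are printed because these genes passed the test below, and those of Pgk1 and Ldha because they carry the motif while their RNA moved little. Each is given 5′ to 3′ in the sense of the gene, in lower case, with ACGTG and GCGTG on either strand in capitals (CACGT and CACGC are these letters on the other strand). CACGTG holds ACGTG once on each strand. The windows are chr12:73907617-73907866 on the plus strand for Hif1a, chr4:119108495-119108713 on the plus strand for Slc2a1, chr7:138909520-138909756 on the minus strand for Bnip3, chrX:106186850-106187099 on the plus strand for Pgk1 and chr7:46845554-46845803 on the plus strand for the first start of Ldha. The 3′ end of the Bnip3 window is shortened to where its GENCODE exon begins, and that of Slc2a1 to the end of its last motif, which runs a few bases into the GENCODE exon.
Hif1a: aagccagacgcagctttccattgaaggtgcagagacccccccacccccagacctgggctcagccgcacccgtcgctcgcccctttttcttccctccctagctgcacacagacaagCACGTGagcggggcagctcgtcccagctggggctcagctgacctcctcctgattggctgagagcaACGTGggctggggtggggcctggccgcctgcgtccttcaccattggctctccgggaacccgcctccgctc
Slc2a1: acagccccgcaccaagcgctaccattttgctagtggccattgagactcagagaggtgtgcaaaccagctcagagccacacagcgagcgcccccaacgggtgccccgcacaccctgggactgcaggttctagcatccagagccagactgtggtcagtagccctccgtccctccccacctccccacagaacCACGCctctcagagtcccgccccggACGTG
Bnip3: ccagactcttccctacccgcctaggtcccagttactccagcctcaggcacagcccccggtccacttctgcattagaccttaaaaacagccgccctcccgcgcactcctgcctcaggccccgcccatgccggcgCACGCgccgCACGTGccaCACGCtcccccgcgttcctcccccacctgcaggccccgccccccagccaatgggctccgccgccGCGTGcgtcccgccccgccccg
Pgk1: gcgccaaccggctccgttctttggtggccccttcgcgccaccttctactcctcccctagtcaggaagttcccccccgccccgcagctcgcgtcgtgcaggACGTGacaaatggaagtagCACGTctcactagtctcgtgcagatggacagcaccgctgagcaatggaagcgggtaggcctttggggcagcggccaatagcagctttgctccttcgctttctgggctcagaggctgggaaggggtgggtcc
Ldha: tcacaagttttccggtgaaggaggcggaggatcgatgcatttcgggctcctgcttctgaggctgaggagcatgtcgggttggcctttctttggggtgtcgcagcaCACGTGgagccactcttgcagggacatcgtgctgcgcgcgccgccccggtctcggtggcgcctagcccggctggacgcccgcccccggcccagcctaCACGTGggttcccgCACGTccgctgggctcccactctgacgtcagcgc

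Hif1a held 3 matches in this window, one CACGTG that is read on both strands at positions -135 and -134 from its start and ACGTG at position -70. Bnip3 and Ldha each held 5 matches, and those of Ldha include 2 copies of CACGTG. Pgk1 held ACGTG at positions -150 and -131, on opposite strands. Slc2a1 held GCGTG at position -61 and ACGTG at position -36. The 250 bases before the start held ACGTG or GCGTG in 11 of the 12 start sites of these genes, against 38.6% of 32851 RefSeq promoters of the same length, and in at least 1 start of 10 of 10 genes, against 41.5% of 27025 genes. The longer ACGTGC or GCGTGC was in 10 of the 12, against 13.6% of all promoters. Several of these genes are textbook HIF targets known to carry such elements, and their windows also had a median GC content of 61.2% against 52.4% for all promoters, so the shares describe the windows only. The main start of Vegfa held neither motif, which says only that the letters are not in that window. Vegfa is counted through its second start alone, whose window is Vegfa exon over 218 of 250 bases, both motifs included.

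All libraries were deep, with 27958819 to 42613423 counted reads, and the rarest of the 10 genes, Car9 and Adm, had 19 to 171 reads per library. The targeted gene went against its label: Cybb had 5.06 ± 0.758 CPM (read count scaled to a fixed library total, SD, n = 3) in WT naive and 47.9 ± 7.56 CPM in CybbKO naive libraries, and 12.1 ± 3.43 CPM in WT ligated and 57.0 ± 6.31 CPM in CybbKO ligated libraries. A count over the whole gene cannot tell a transcript of a disrupted allele from an intact one, and the groups are therefore named as the libraries labelled CybbKO. The tissue carried its markers, with 10 of 10 oral epithelium and 8 of 8 fibroblast genes detected. A pair of libraries stood apart. WT naive replicate 3 had 29183 CPM over 7 salivary gland genes, against 63.0 to 5053 in the other 11 libraries, and of these genes Prol1 was at 0 in all libraries. The library labelled CybbKO ligated replicate 2 lay nearest to the naive libraries among the ligated ones on the first principal component. Its neutrophil markers summed to 2521 CPM, against 4467 in replicate 1 and 11693 in replicate 3 of that group.

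Ligated gingiva had more RNA of Hif1a, of the glucose transporter Slc2a1 and of the mitophagy gene Bnip3 than naive gingiva in libraries labelled CybbKO, by about 2-fold each, and in WT tissue Bnip3 alone passed the test. Car9 had the largest fold change of the 10 with the CybbKO label, 2.78, and one of 2.26 in WT, with adjusted p of 0.0544 and 0.176 by edgeR. The remaining genes differed by less than 2-fold in both genotypes, and Ldha, the most abundant of them per exon length, differed by 1.10-fold in WT and 1.07-fold in libraries labelled CybbKO. By edgeR's quasi-likelihood test with Benjamini-Hochberg adjustment over all 15046 genes at 0.05, 1 of the 10 was called higher in WT, where 2.31% of all genes were, and 3 of the 10 in libraries labelled CybbKO, where 9.95% were. None was called lower, against 0.884% and 3.04% of all genes. DESeq2 called 3 in WT (Hif1a, Slc2a1 and Bnip3), where 8.93% of its genes were called, and 4 in libraries labelled CybbKO (Car9 besides these 3), where 17.8% were. Without WT naive replicate 3, edgeR called 3 of the 10 in WT, and without the library labelled CybbKO ligated replicate 2 it called 4 of the 10 in that genotype. The WT count fell to 0 without WT ligated replicate 1 or 3 or WT naive replicate 1 or 2. The count with the CybbKO label fell to 0 without ligated replicate 3, to 1 without ligated replicate 1 or naive replicate 2 or 3, and to 2 without naive replicate 1. The log2 fold change was positive for 10 of 10 genes in WT, with a median of 0.70 against -0.03 over all genes tested, and for 9 of 10 genes in libraries labelled CybbKO, with a median of 0.65 against -0.03. The 3 libraries of a group did not overlap, with ligated higher, for 5 of 10 genes in WT, against 13.3% of all genes, and for 7 of 10 in libraries labelled CybbKO, against 18.5%. For one gene, an exact permutation test (two-sided) of 3 against 3 libraries has a smallest possible p of 0.1, and every pair of groups without overlap has that value. All 10 neutrophil, 8 macrophage, 9 endothelium and 8 fibroblast markers were detected, and their summed levels were higher in ligated tissue too. Neutrophil markers went from 385 to 857 CPM in WT naive to 1354 to 3797 CPM in WT ligated libraries, and from 828 to 938 CPM to 2521 to 11693 CPM in those labelled CybbKO. Fibroblast markers went from 2101 to 3349 CPM to 6060 to 9161 CPM in WT, and from 1640 to 2147 CPM to 4459 to 12032 CPM in those labelled CybbKO. Macrophage markers went from 65.0 to 75.1 CPM to 90.0 to 124 CPM in WT, and from 52.0 to 57.2 CPM to 124 to 168 CPM in those labelled CybbKO. Oral epithelium markers overlapped, at 95281 to 127495 CPM in WT naive and 77094 to 110677 CPM in WT ligated libraries. In those labelled CybbKO they were at 99455 to 143630 CPM when naive and 77692 to 127604 CPM when ligated. Of these 10 markers edgeR called 0 in either genotype, with median log2 fold changes of -0.20 and -0.24. In whole tissue, a change in the number of cells of a type and a change in RNA per cell cannot be told apart, and the part of these markers in the results was not tested.

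**Figure D1:**
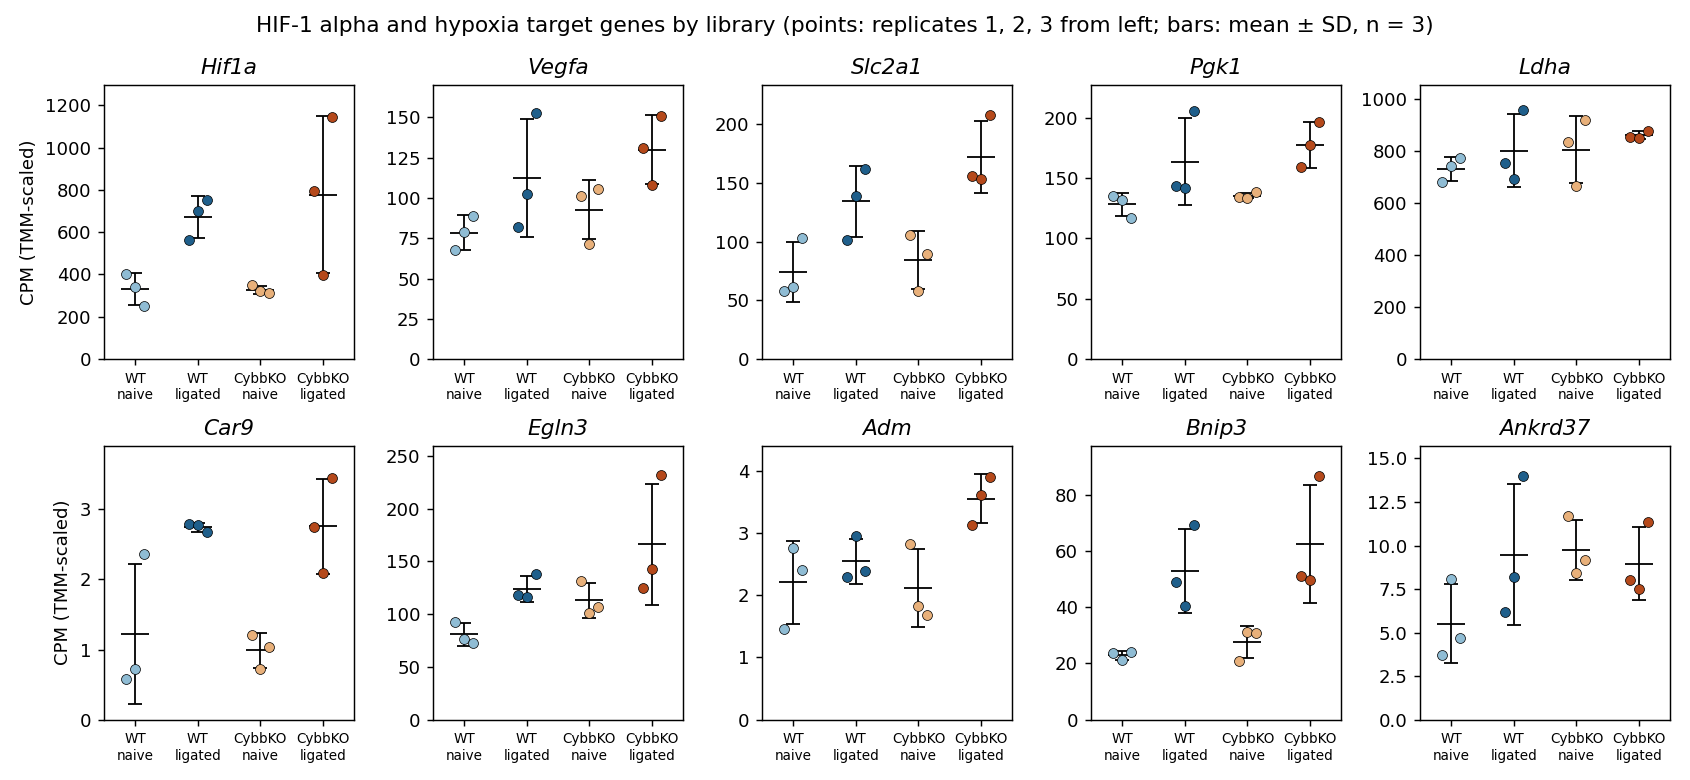
CPM (vertical axes, linear, from 0) of the 10 genes in each of the 12 libraries by group, with points for replicates 1, 2 and 3 and bars for mean ± SD (n = 3). Bnip3 is the clearest case, with naive libraries between 21.01 and 31.2 CPM and ligated libraries between 40.3 and 86.6 CPM.

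Hif1a (ENSMUSG00000021109; chr12:73901375-73947530 on the plus strand of GRCm38) encodes the oxygen-regulated subunit. It had 404, 341 and 250 CPM in WT naive libraries 1 to 3 and 563, 700 and 754 CPM in WT ligated libraries 1 to 3. The libraries labelled CybbKO had 349, 322 and 312 CPM when naive and 794, 397 and 1144 CPM when ligated. All ligated values lay above all naive values within each genotype, but the ligated libraries labelled CybbKO were far apart, and the lowest of them, replicate 2, lay just below the highest WT naive value. The fold change was 2.38 in libraries labelled CybbKO (log2 1.25, standard error 0.31, adjusted p = 0.0212 by edgeR) and 2.03 in WT (log2 1.02, standard error 0.31, adjusted p = 0.0898 by edgeR and 0.0189 by DESeq2). The call in libraries labelled CybbKO was lost without ligated replicate 1 (adjusted p = 0.0674) or 3 (0.0930) and without naive replicate 1 (0.0561), 2 (0.0691) or 3 (0.0730), all by edgeR, and the log2 fold change stayed between 0.86 and 1.56 over all libraries left out in turn. It was also lost when edgeR was fitted to the 6 libraries of that genotype alone (adjusted p = 0.0546). Within each of the 4 groups, the order of Hif1a over the 3 libraries was the order of their summed neutrophil markers, an observation made after seeing the values. The sums in replicates 1 to 3 were 857, 411 and 385 CPM in WT naive, 1354, 2594 and 3797 CPM in WT ligated, 938, 895 and 828 CPM in naive and 4467, 2521 and 11693 CPM in ligated libraries labelled CybbKO. Their part in the Hif1a result was not tested. Gm49321, another gene on the same strand, overlaps Hif1a over 9878 bases, and reads in the overlap could be assigned to either or to none.

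Of the oxygen sensors that act on HIF-1 alpha, Egln3 is one of the 10 genes. Egln3 (ENSMUSG00000035105; chr12:54178981-54203860, minus strand), a prolyl hydroxylase that is itself induced by HIF and so closes a feedback loop, had 92.9, 76.3 and 73.0 CPM in WT naive and 118, 117 and 138 CPM in WT ligated libraries. In libraries labelled CybbKO it had 132, 101 and 107 CPM when naive and 125, 143 and 231 CPM when ligated. WT ligated values were all above WT naive ones, whereas ligated replicate 1 labelled CybbKO lay below the highest naive library of its genotype. The fold change was 1.54 in WT (adjusted p = 0.125 by edgeR) and 1.47 in libraries labelled CybbKO (adjusted p = 0.106 by edgeR), so neither passed the test. The related sensors Egln1 and Egln2, the HIF-2 alpha gene Epas1 and the partner Arnt were not called in either genotype by edgeR either, with log2 fold changes from -0.58 for Egln2 in WT to 0.42 for Egln1 in libraries labelled CybbKO.

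Slc2a1 (ENSMUSG00000028645; chr4:119108711-119137983, plus strand) encodes the glucose transporter GLUT1. Its levels were 57.7, 61.7 and 103 CPM in WT naive and 102, 139 and 162 CPM in WT ligated libraries. With the CybbKO label they were 106, 57.6 and 89.4 CPM when naive and 156, 153 and 208 CPM when ligated. The groups separated fully in libraries labelled CybbKO, and in WT only the naive replicate 3, at 103 CPM, reached above the lowest ligated library. The fold change was 2.05 in libraries labelled CybbKO (log2 1.03, standard error 0.27, adjusted p = 0.0294 by edgeR) and 1.81 in WT (log2 0.86, standard error 0.27, adjusted p = 0.108 by edgeR and 0.0422 by DESeq2). Without WT naive replicate 3, the library with high salivary gland markers, the WT log2 fold change was 1.17 and passed (adjusted p = 0.0333 by edgeR). With the CybbKO label the call was lost without ligated replicate 1 (adjusted p = 0.0666) or 3 (0.118) and without naive replicate 2 (0.0962) or 3 (0.0739), all by edgeR.

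The 2 glycolytic enzymes moved less than the transporter. Pgk1 (ENSMUSG00000062070; chrX:106187100-106203699, plus strand), phosphoglycerate kinase, had 135, 132 and 117 CPM in WT naive and 144, 142 and 205 CPM in WT ligated libraries. It had 135, 134 and 138 CPM in naive and 159, 178 and 197 CPM in ligated libraries labelled CybbKO. All 6 ligated libraries were above all 6 naive libraries, yet the differences were small, 1.28-fold in WT (adjusted p = 0.208 by edgeR) and 1.31-fold in libraries labelled CybbKO (adjusted p = 0.105 by edgeR). Ldha (ENSMUSG00000063229; chr7:46841475-46855627, plus strand), which reduces pyruvate to lactate, had 680, 742 and 771 CPM in WT naive, 752, 693 and 958 CPM in WT ligated, 834, 663 and 917 CPM in naive and 852, 849 and 877 CPM in ligated libraries labelled CybbKO. Its groups overlapped in both genotypes. The 95% interval of its fold change ran from 0.868 to 1.38 in WT and from 0.846 to 1.35 in libraries labelled CybbKO, so that a 2-fold change lies outside both intervals. The annotation holds 3 pseudogenes named after Pgk1 and 2 named after Ldha, and reads shared with these copies could have been split or dropped.

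Car9 (ENSMUSG00000028463; chr4:43506966-43513729, plus strand), a membrane carbonic anhydrase that handles acid at the cell surface, was the rarest of the genes per exon length. It had 0.579, 0.727 and 2.37 CPM in WT naive and 2.79, 2.77 and 2.67 CPM in WT ligated libraries, which are 19 to 65 and 103 to 112 reads. The libraries labelled CybbKO had 1.21, 0.721 and 1.04 CPM when naive and 2.74, 2.09 and 3.45 CPM when ligated. Ligated libraries were higher than naive ones without overlap in both genotypes, with WT naive replicate 3, the library rich in salivary gland markers, close to the ligated level. The fold change was 2.26 in WT (adjusted p = 0.176 by edgeR) and 2.78 in libraries labelled CybbKO (95% interval 1.39 to 5.56, adjusted p = 0.0544 by edgeR and 0.0132 by DESeq2). In libraries labelled CybbKO it passed edgeR's test under several alternatives, with library size only (adjusted p = 0.0435), with at least 10 counts in every library (0.0477), in the fit of the 6 libraries compared (0.0302), and without WT naive replicate 1 (0.0337) or 3 (0.00628) or ligated replicate 2 of its own genotype (0.0401), and over all libraries left out in turn its adjusted p by edgeR ran from 0.00628 to 0.179. Without WT naive replicate 3 the WT log2 fold change went from 1.18 to 2.07 and passed (adjusted p = 0.0133 by edgeR).

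Bnip3 (ENSMUSG00000078566; chr7:138890836-138909519, minus strand), which tags mitochondria for removal, was the one gene called in both genotypes by edgeR, while DESeq2 called Hif1a and Slc2a1 in both as well. It had 23.7, 21.1 and 24.1 CPM in WT naive and 49.1, 40.3 and 69.3 CPM in WT ligated libraries. In libraries labelled CybbKO it had 21.01, 31.2 and 30.7 CPM when naive and 50.9, 49.8 and 86.6 CPM when ligated. All 6 ligated libraries exceeded all 6 naive libraries. Bnip3 rose 2.30-fold in WT (log2 1.20, standard error 0.25, adjusted p = 0.0301 by edgeR) and 2.26-fold in libraries labelled CybbKO (log2 1.18, standard error 0.25, adjusted p = 0.0119 by edgeR). The WT call was lost without WT ligated replicate 1 (adjusted p = 0.0547) or 3 (0.114) and without WT naive replicate 1 (0.0829) or 2 (0.135), and the call in libraries labelled CybbKO without ligated replicate 3 (0.0504), all by edgeR.

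The 2 secreted vascular factors were higher on average without passing the test. Vegfa (ENSMUSG00000023951; chr17:46016993-46032369, minus strand), the main growth factor for blood vessels, had 67.4, 78.8 and 88.9 CPM in WT naive and 81.9, 102 and 153 CPM in WT ligated libraries. It had 101, 71.6 and 105 CPM in naive and 131, 108 and 151 CPM in ligated libraries labelled CybbKO. The groups overlapped in WT and separated by a narrow margin in libraries labelled CybbKO, with fold changes of 1.43 (adjusted p = 0.231 by edgeR) and 1.40 (adjusted p = 0.187 by edgeR). Adm (ENSMUSG00000030790; chr7:110627661-110629820, plus strand), the vasodilator peptide adrenomedullin, had 1.46, 2.75 and 2.41 CPM in WT naive and 2.29, 2.96 and 2.39 CPM in WT ligated libraries, a fold of 1.15 with overlapping groups. In libraries labelled CybbKO it had 2.83, 1.83 and 1.68 CPM when naive and 3.13, 3.61 and 3.90 CPM when ligated, a fold of 1.68 without overlap (adjusted p = 0.112 by edgeR).

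Ankrd37 (ENSMUSG00000050914; chr8:45996902-46005707, minus strand), an ankyrin repeat protein known as a HIF target, was the one gene whose difference had opposite signs in the 2 genotypes. It had 3.75, 8.06 and 4.70 CPM in WT naive and 6.20, 8.22 and 13.99 CPM in WT ligated libraries. In libraries labelled CybbKO it had 11.7, 8.41 and 9.18 CPM when naive and 8.04, 7.49 and 11.3 CPM when ligated. The groups overlapped in both genotypes, and neither the log2 fold change of 0.78 in WT (adjusted p = 0.229 by edgeR) nor that of -0.12 in libraries labelled CybbKO (adjusted p = 0.845 by edgeR) passed. Lrp2bp overlaps Ankrd37 over 6405 bases on the opposite strand. The methods state counting by strand, which would keep the 2 genes apart. The submitters' notes name another counter, so whether the deposited counts were made that way is not settled here.

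With the responses of both genotypes averaged in the same fit, a contrast added after seeing the data, 7 of the 10 genes were called higher in ligated tissue, where 14.7% of all genes were. The 7 were Hif1a (2.20-fold, adjusted p = 0.00362), Bnip3 (2.28-fold, 0.00105), Slc2a1 (1.92-fold, 0.00529), Car9 (2.51-fold, 0.0118), Egln3 (1.503-fold, 0.0140), Pgk1 (1.29-fold, 0.0227) and Vegfa (1.42-fold, 0.0398), all by edgeR. Adm (1.39-fold, adjusted p = 0.109), Ankrd37 (1.26-fold, 0.347) and Ldha (1.08-fold, 0.486) were not called. The ligated and naive libraries of both genotypes did not overlap for Bnip3 and Pgk1, 2 of 10 genes, against 6.73% of all genes. Vegfa was called in 3 of 12 fits with 1 library left out, Pgk1 in 11, and the other 5 in 12. This contrast uses the same libraries as the 2 within-genotype ones and is not a separate observation.

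**Figure D2:**
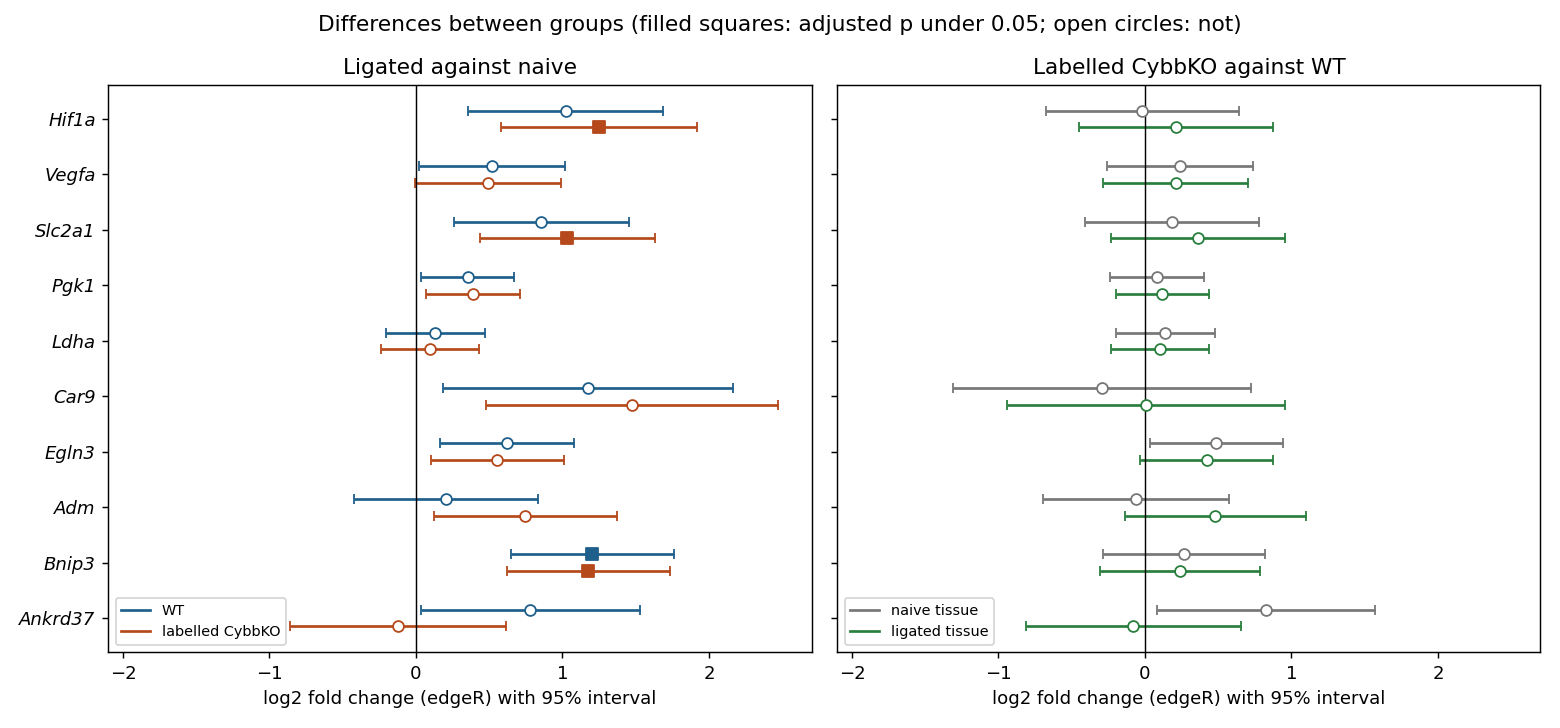
Log2 fold changes from edgeR with 95% intervals for ligated against naive tissue in each genotype (left) and for libraries labelled CybbKO against WT in naive and in ligated tissue (right), with filled squares for adjusted p under 0.05. Hif1a, Slc2a1 and Bnip3 carry the filled squares on the left, and every interval on the right is drawn with an open circle.

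Between genotypes, none of the 10 genes was called. In ligated tissue edgeR called 0 of the 10, where 0.00665% of all genes were called, DESeq2 called 0 of them, against 0.112% of its genes, and 0 were below 0.05 without adjustment, against 3.34% of all genes. That unadjusted count by edgeR rose to 2 without WT ligated replicate 3 or without the ligated library labelled CybbKO replicate 2. It rose to 1 without the ligated library labelled CybbKO replicate 1. The signs were positive for 9 of 10 genes, with a median log2 fold change of 0.21 against 0.01 over all genes tested. Hif1a was 1.16-fold higher in ligated libraries labelled CybbKO, with a 95% interval from 0.732 to 1.83, and it was lower by 0.18 on the log2 scale without ligated replicate 3 of that genotype. The intervals were narrower for Pgk1, 0.870 to 1.36, and for Ldha, 0.850 to 1.35, and wider for Car9, 0.521 to 1.94. Adm was the gene without overlap, 1 of 10 against 7.84% of all genes, higher in libraries labelled CybbKO at 3.13 to 3.90 CPM against 2.29 to 2.96 CPM in WT, a fold of 1.39 with an interval from 0.908 to 2.14. These intervals include both no difference and, for most genes, differences of 1.5-fold, so the comparison does not show that the genotypes were alike.

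In naive tissue edgeR and DESeq2 again called 0 of the 10, where edgeR called 0.00665% and DESeq2 0.0110% of all genes, and 2 were below 0.05 by edgeR without adjustment, where 2.03% of all genes were. These were Egln3, with 73.0 to 92.9 CPM in WT and 101 to 132 CPM in libraries labelled CybbKO (1.40-fold, 95% interval 1.02 to 1.92), and Ankrd37, with 3.75 to 8.06 CPM in WT and 8.41 to 11.7 CPM in libraries labelled CybbKO (1.77-fold, interval 1.06 to 2.97). Both were higher without overlap, 2 of 10 against 2.08% of all genes. Their adjusted p was 1 by edgeR. The count of 2 fell to 0 without WT naive replicate 3 or the naive library labelled CybbKO replicate 1, and to 1 without WT naive replicate 1 or 2, WT ligated replicate 1 or the naive library labelled CybbKO replicate 3. Hif1a was at 331 ± 77.3 CPM (SD, n = 3) in WT and 327 ± 19.02 CPM in libraries labelled CybbKO, a fold of 0.988 with an interval from 0.625 to 1.56.

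The difference of the ligature response between genotypes was also tested directly, as an interaction. EdgeR and DESeq2 each called 0 of the 10 and 0.00% of all genes, and 0 of the 10 were below 0.05 by edgeR without adjustment, against 2.27% of all genes. That unadjusted count rose to 1 without WT ligated replicate 1 or without WT naive replicate 2. The largest difference belonged to Ankrd37, whose log2 response was lower by 0.90 in libraries labelled CybbKO (95% interval -1.95 to 0.14, unadjusted p = 0.0840 by edgeR). For Hif1a it was 0.23 (interval -0.71 to 1.16), for Slc2a1 0.18 (-0.66 to 1.01) and for Bnip3 -0.03 (-0.80 to 0.75). The naive genotype difference and the interaction of Ankrd37 share the naive libraries and are not separate observations.

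Levels between genes are compared per exon length, as RPKM, the CPM divided by exon length in kilobases. Ldha had the highest level in every group, from 221 ± 14.1 RPKM (SD, n = 3) in WT naive to 260 ± 4.68 RPKM in ligated libraries labelled CybbKO, and Car9 the lowest, from 0.430 ± 0.108 to 1.20 ± 0.295 RPKM. Hif1a and Pgk1 were next to Ldha and overlapped in WT naive tissue, at 56.2 ± 13.1 and 57.2 ± 4.31 RPKM. In WT ligated tissue Hif1a was at 114 ± 16.8 RPKM and Pgk1 at 73.0 ± 16.1 RPKM, and their ranges did not overlap. With the CybbKO label, Pgk1 was above Hif1a without overlap in naive tissue, at 59.6 to 61.6 against 52.9 to 59.1 RPKM, and in ligated tissue they overlapped, at 70.8 to 87.7 against 67.4 to 194 RPKM, as did Pgk1 and Egln3. Egln3, Slc2a1, Vegfa and Bnip3 followed in this order in all 4 groups, as group means. Of these neighbours, Egln3 and Slc2a1 overlapped in 3 groups, Slc2a1 and Vegfa in 3, and Vegfa and Bnip3 in 2, both ligated. Ankrd37 at 3.58 to 6.34 RPKM and Adm at 1.30 to 2.19 RPKM, as group means, stood between Bnip3 and Car9 in each group, and Adm and Car9 overlapped in WT naive tissue.

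**Figure D3:**
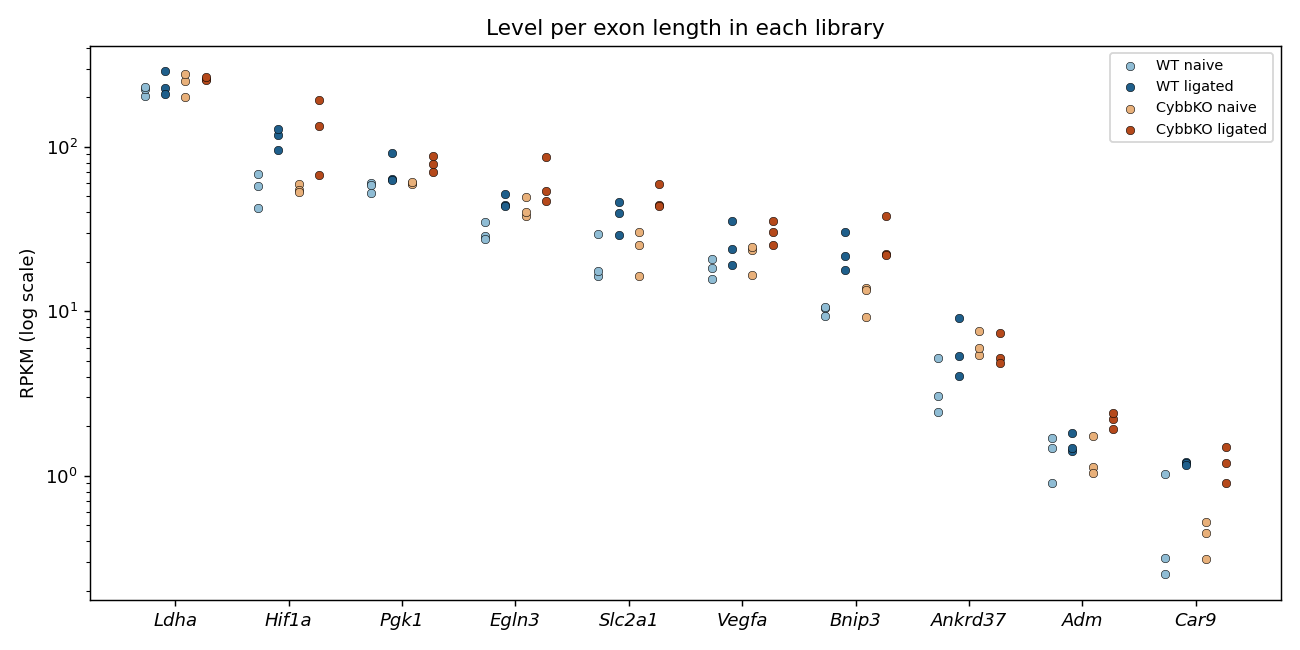
RPKM (vertical axis, log scale) of each gene in each of the 12 libraries, by group, in order of the mean level. The genes span from 0.251 RPKM for Car9 to 289 RPKM for Ldha, and Hif1a moves above Pgk1 in WT ligated tissue.

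The wider pathway was read from 7 lists with 84 genes in all, the 10 included. In WT, 5 were called higher in ligated tissue and 1 lower, and in libraries labelled CybbKO 15 and 1. Without the 10 genes, 4 of 74 were called higher in WT, where 2.31% of all genes were, and 12 of 74 in libraries labelled CybbKO, where 9.95% were. The median log2 fold change of the 74 was 0.12 in WT and 0.24 in libraries labelled CybbKO, against -0.03 over all genes in each. Within the list of glucose uptake and glycolysis, 1 of 19 genes was called in WT and 2 of 19 in libraries labelled CybbKO, with medians of 0.12 and 0.17 on the log2 scale. Pfkp, the platelet-type phosphofructokinase, was called in both (log2 0.56 in WT, adjusted p = 0.0282, and 0.80 in libraries labelled CybbKO, adjusted p = 0.00240, by edgeR), whereas the abundant Aldoa and Pkm had log2 fold changes from -0.25 to 0.07. No gene for oxygen sensing, of 6, was called in either genotype by edgeR. By DESeq2, Egln1 passed in libraries labelled CybbKO (adjusted p = 0.0451).

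The mitophagy and mitochondria list had 2 of 7 genes called higher by edgeR in each genotype, where 2.31% of all genes were in WT and 9.95% in libraries labelled CybbKO. These were Bnip3 and Fam162a, a mitochondrial protein known as a HIF target. Fam162a had 256 to 313 CPM in WT naive and 412 to 470 CPM in WT ligated libraries, and 278 to 294 and 380 to 463 CPM in libraries labelled CybbKO, without overlap, with log2 fold changes of 0.61 (adjusted p = 0.0247 by edgeR) and 0.55 (adjusted p = 0.0123 by edgeR). Bnip3l, the paralog of Bnip3, had log2 fold changes of 0.27 and 0.26 and was not called. Ndufa4l2, a mitochondrial gene of the same list, had 0.08 and 0.39 and was not called. In the list of lactate, pyruvate and pH, Car12, another membrane carbonic anhydrase, was the 1 of 8 called in libraries labelled CybbKO (log2 0.86, adjusted p = 0.00536 by edgeR), and 0 of 8 were called in WT by edgeR, where its log2 fold change was 0.61 (adjusted p = 0.0566 by edgeR and 0.00778 by DESeq2). The lactate carrier Slc16a1 had log2 fold changes of -0.04 in both, and Ldhb -0.32 and -0.68. The other lactate carrier of the list, Slc16a3, named here after its values were seen, had 0.66 in WT (adjusted p = 0.459 by edgeR) and 1.45 in libraries labelled CybbKO (adjusted p = 0.0603 by edgeR and 0.0115 by DESeq2).

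All 10 genes of the vascular list were positive in both genotypes, with 1 called by edgeR in WT, where 2.31% of all genes were called higher, and 4 in libraries labelled CybbKO, where 9.95% were. The VEGF receptor Kdr was called in both (log2 1.01 in WT, adjusted p = 0.0462, and 1.04 in libraries labelled CybbKO, adjusted p = 0.0159, by edgeR), and the vessel-destabilizing ligand Angpt2 (log2 1.99, adjusted p = 0.00460) and the VEGF co-receptor Nrp1 (0.73, 0.0200) were among those called in libraries labelled CybbKO, all by edgeR. In WT the log2 fold change of Angpt2 was 1.21 (adjusted p = 0.0774 by edgeR and 0.0132 by DESeq2) and that of Nrp1 was 0.36 (0.289 by edgeR and 0.279 by DESeq2). Kdr is itself an endothelial marker, and the 9 endothelium markers, Kdr among them, summed to 136 to 183 CPM in WT naive, 256 to 386 CPM in WT ligated, 154 to 182 CPM in naive and 286 to 395 CPM in ligated libraries labelled CybbKO. Their part in the vascular genes was not tested. In the list of other HIF targets, edgeR called 1 of 29 genes higher and 1 lower in WT. It called 5 higher and 1 lower in libraries labelled CybbKO. Of all genes, 2.31% and 9.95% were called higher in these genotypes, and 0.884% and 3.04% lower. The list had median log2 fold changes of 0.12 and 0.07, with 16 and 18 of the 29 genes positive. Of the 29 other HIF targets, Lox, a collagen crosslinking enzyme, had the largest fold change, from 9.75 to 24.1 CPM in WT naive to 68.3 to 111 CPM in WT ligated libraries (log2 2.61, adjusted p = 0.0248 by edgeR) and from 6.49 to 7.26 CPM to 35.2 to 162 CPM in libraries labelled CybbKO (log2 4.09, adjusted p = 0.00207 by edgeR). Plod2, a collagen lysyl hydroxylase, the urokinase receptor Plaur, the inducible nitric oxide synthase Nos2 and the chemokine receptor Cxcr4 rose in libraries labelled CybbKO, with log2 fold changes of 2.04, 2.53, 2.20 and 2.00 and adjusted p of 0.0107, 0.00602, 0.00838 and 0.0155 by edgeR. They were not called in WT by edgeR, at 1.40, 0.70, 0.77 and 1.23, although DESeq2 called Plod2 there (adjusted p = 0.0145), and the interaction was called for none of them by either tool. Fibroblast and neutrophil marker sums, given above, were higher in the same libraries, and their part in these genes was not tested. Bhlhe41, a transcriptional repressor of the circadian clock that hypoxia is known to induce, fell by 1.59 on the log2 scale in WT (adjusted p = 0.0165 by edgeR) and by 1.87 in libraries labelled CybbKO (adjusted p = 0.00276 by edgeR).

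**Figure D4:**
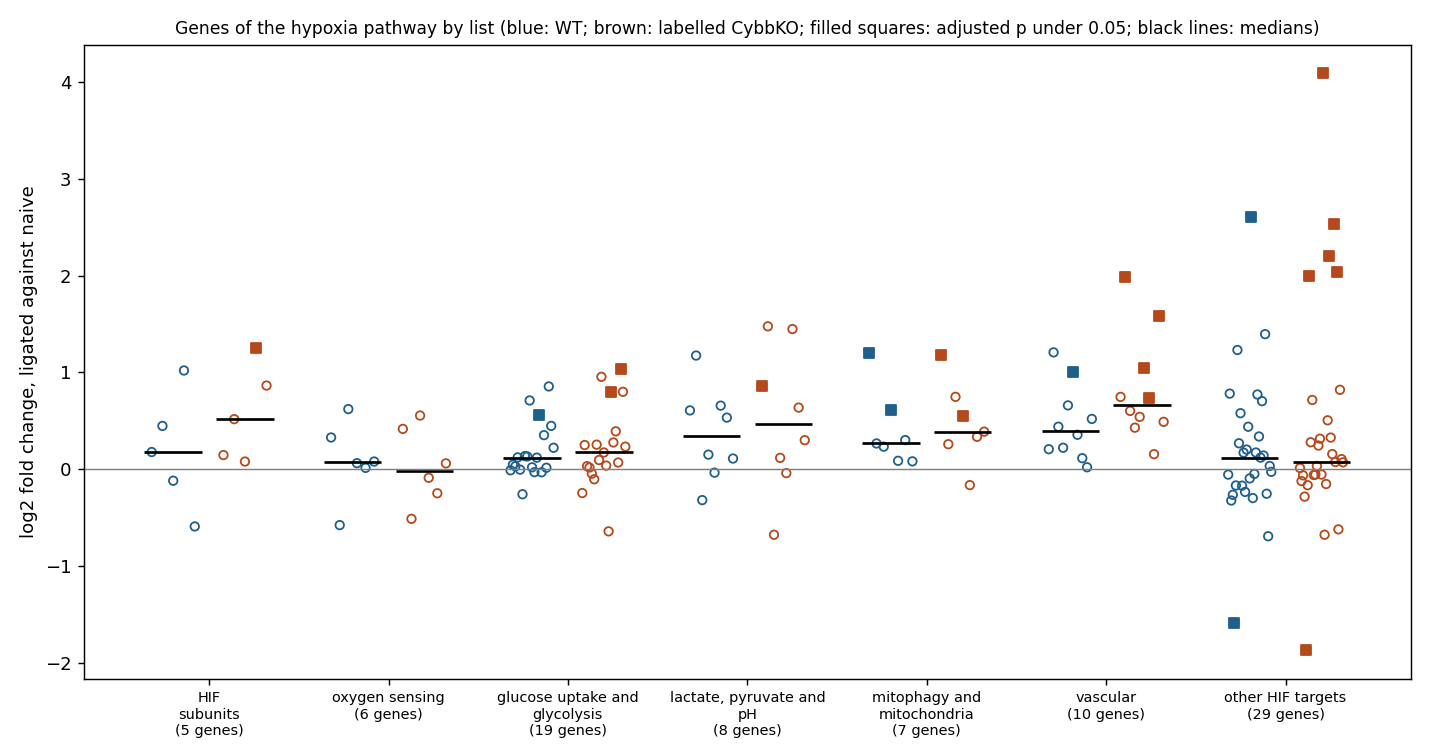
Log2 fold change of ligated against naive tissue (vertical axis) for the 84 genes of the 7 lists, with WT in blue, libraries labelled CybbKO in brown, filled squares for adjusted p under 0.05 by edgeR and black lines for list medians. The genes for glucose uptake and glycolysis cluster near 0, with medians of 0.12 in WT and 0.17 in libraries labelled CybbKO. The medians of oxygen sensing (0.07 and -0.01) and of other HIF targets (0.12 and 0.07) also lie near 0. The vascular genes all lie above 0.

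The genes most like Hif1a over the 12 libraries, by Pearson's r of log2(CPM + 0.5), were Wsb1 (0.98), Tfpi (0.97), Tmprss11b (0.97), Klf7 (0.97) and Nox4 (0.97). After subtracting group means, r was 0.93, 0.91, 0.91, 0.92 and 0.91 for these genes. Of the 9 target genes Bnip3 was the most like Hif1a, with r = 0.85 and rank 802 among the tested genes, and Ldha the least, with r = 0.31. After subtracting group means, Bnip3 was at 0.45, Egln3 at 0.64, Slc2a1 at 0.13 and Car9 at -0.03. These are descriptions of 12 libraries that share the split into ligated and naive tissue, and they carry no test.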

How the data were processed

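Gingival RNA was sequenced from stranded mRNA libraries of 12 mouse samples, and the labels set the groups. The authors deposited raw counts of reads per gene, without normalization. The methods name STAR, GRCm38 and counting by strand with featureCounts, while the submitters' processing notes name HTSeq 0.10.0 and FastQC 0.10.1, so the counter is not settled here. Symbols came from GENCODE M21 for 21939 of 21965 genes. Counts were fitted in R 4.3.3 with edgeR 4.0.16 (TMM, filterByExpr, quasi-likelihood F test, 1 mean per group over 12 libraries), with Benjamini-Hochberg adjustment. DESeq2 1.42.0 was an alternative. CPM used TMM-scaled library sizes, RPKM the GENCODE exon length, and intervals the fit's degrees of freedom. The procedure was tested on simulated data. The genes, lists and tests were chosen with earlier results of these data known. Genes outside the 10 were named if called in ligated against naive tissue and among the 12 largest changes in either genotype, or as the 3 most abundant per exon length of a list with fewer than 3 called, besides the 5 most correlated with Hif1a. 1 gene that met this rule is not reported here. Same-numbered replicates mostly did not deviate together, with 3 of 18 pairs above a correlation of 0.1. These 3 were all pairs of replicate 3, at 0.11, 0.17 and 0.32, and other pairs of replicate 3 went down to -0.27. No 2 libraries of the same group agreed within sampling noise, and pairs across groups were not compared.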

Additional observations from a re-analysis of the deposited data

How the results depend on the processing

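In ligated against naive WT, edgeR called 481 genes, DESeq2 1372 and the fit with a replicate block 271, and leaving out 1 library gave 27 (without WT naive replicate 2) to 900 (without the library labelled CybbKO ligated replicate 2). Of the 10 genes it called 1, DESeq2 3 (Hif1a, Slc2a1 and Bnip3), the fit of the 6 libraries compared 2 (Hif1a and Bnip3), and leaving out 1 library 0 to 3. In libraries labelled CybbKO, edgeR called 1954 genes and 837 (without ligated replicate 1) to 2949 (without ligated replicate 2) with 1 library left out, and 3 of the 10 genes and 0 to 4 with 1 left out. The fit of the 6 libraries compared also called 3 there, but lost Hif1a (adjusted p = 0.0546) and gained Car9 (0.0302), both by edgeR. For the average over genotypes 7 of the 10 were called and 5 to 7 with 1 left out. Between genotypes in ligated tissue, 1 gene was called, DESeq2 called 18, the fit of 6 libraries 0, and leaving out 1 library 0 to 2. In naive tissue 1 was called, DESeq2 called 2, and leaving out 1 library 1. The interaction had 0 called and 0 to 1 with 1 left out. The replicate block called 1 and 3 of the 10 genes in the ligature comparisons, as without it. The cause of these shifts was not tested.

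The log2 difference of Car9 between ligated genotypes, 0.01, turned to -0.000498 under DESeq2, -0.000324 with DESeq2's size factors, -0.018 with library size only, -0.014 in the fit of 6 libraries and -0.054 with the replicate block. With 1 library left out in turn, these log2 differences also changed sign. In ligated against naive WT the ranges were Ldha -0.017 to 0.23 and Adm -0.021 to 0.40. In ligated against naive libraries labelled CybbKO they were Ldha -0.027 to 0.20 and Ankrd37 -0.33 to 0.027. Between ligated libraries labelled CybbKO and WT, the ranges were Hif1a -0.18 to 0.53, Car9 -0.19 to 0.17, Bnip3 -0.071 to 0.48 and Ankrd37 -0.32 to 0.31. Between naive libraries labelled CybbKO and WT, the ranges were Hif1a -0.18 to 0.15, Slc2a1 -0.014 to 0.50, Car9 -0.64 to 0.60 and Adm -0.33 to 0.13. For the interaction they were Hif1a -0.16 to 0.54, Vegfa -0.23 to 0.26, Slc2a1 -0.14 to 0.37, Pgk1 -0.070 to 0.24, Ldha -0.16 to 0.11, Car9 -0.59 to 0.64, Egln3 -0.38 to 0.10 and Bnip3 -0.34 to 0.22. None of these was called in any fit. Car9 and Adm rest on the fewest reads of the 10 genes, 19 to 171 per library.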
